A study of Mus musculus with 8 samples.

Results

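The TAM receptors Mertk, Axl and Tyro3 and their ligands Gas6 and Pros1 were followed through naïve and efferocytic macrophages (Mϕ) with and without an inflammatory stimulus. These 5 genes, of 55359 in the deposited table, are those whose Ensembl identifiers carry the 5 symbols in the GENCODE mouse annotation, and all 5 passed the filter on low values. Total RNA was sequenced from bone marrow-derived Mϕ (BMDMs) of adult wildtype C57BL/6 mice of both sexes in 4 groups with n = 2 samples each, numbered 1 and 2. All groups were grown with M-CSF and GM-CSF (20 ng/mL each), for 7 days by the labels and 6 days by the study's methods, and CD45+ cells were selected with magnetic beads at harvest. Ctrl Mϕ were naïve and unstimulated. LPS Mϕ were naïve and received LPS (100 ng/mL) together with murine IFNγ (100 U/mL) for 6 h. Eff Mϕ, from day 6 on, shared a culture for 16 h with apoptotic NIH-3T3 CA (caspase activatable) mouse fibroblasts of clone D10, at 5 apoptotic cells per Mϕ, and are called efferocytic here because engulfing apoptotic cells is efferocytosis. LPSEff Mϕ had the same co-culture, were washed, and then received the same LPS/IFNγ. The fibroblasts carry a caspase-8 that a dimerizer (10 nM) switches on, and whether Ctrl and LPS Mϕ also met the dimerizer is not given in the sources used here. The fibroblasts are of the same species as the Mϕ, and the deposited counts per gene do not tell which cell a read came from.

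The TAM receptors are receptor tyrosine kinases that recognise apoptotic cells through bridging ligands. Gas6 and Protein S (the product of Pros1) bind phosphatidylserine on the dying cell through a vitamin K-dependent Gla domain and bind the receptor through their other end. In Mϕ, Mertk is best known as a receptor for efferocytosis in the resting or tolerant state and Axl as the receptor induced by interferon and Toll-like receptor ligands, and TAM signalling dampens cytokine production through the type I interferon receptor and SOCS proteins.

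The values are normalized counts, that is, reads per gene divided by a size factor per sample. The 8 samples held between 3481288 (Ctrl 1) and 12020918 (Ctrl 2) reads, so that 3 reads correspond to between 1.73 and 5.71 normalized counts. Normalized counts summed to between 6.59e+06 and 6.95e+06 per sample without LPS/IFNγ and to between 8.47e+06 and 9.49e+06 with it. Of 14 Mϕ markers, all were above 10 normalized counts in every group, and their summed level lay between 133328 and 208631 in every sample. The 10 lymphocyte markers summed to between 9.83 and 35.5 normalized counts. Fibroblast markers summed to between 1940 and 2220 normalized counts in Ctrl samples, 5679 and 7517 in LPS samples, 3521 and 7438 in Eff samples and 13197 and 14022 in LPSEff samples. Differences below are on the log2(normalized count + 1) scale, which understates changes of low genes, with standard errors (SE) and Benjamini-Hochberg adjusted p-values from limma over 16309 genes. A gene was called at an adjusted p under 0.05.

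Axl, which lies on the minus strand at chr7:25456535-25488329 (GRCm39, ENSMUSG00000002602), was the receptor with the highest level in every sample. Its normalized counts were 3361 and 3947 in Ctrl samples, 9215 and 10318 in LPS samples, 1973 and 2515 in Eff samples and 7538 and 6436 in LPSEff samples. All 4 stimulated samples were thus above all 4 unstimulated ones, and within each stimulation state both efferocytic samples were below both naïve ones. Axl rose with LPS/IFNγ by 1.42 (SE 0.21, 2.68-fold, adjusted p = 0.00219, limma, n = 2 per group) in naïve Mϕ and by 1.64 (SE 0.21, 3.13-fold, adjusted p = 0.00126) in efferocytic Mϕ, in both same-numbered pairs each time. Quantile normalization reduced the first difference to 0.56 with an adjusted p of 0.0659, within a range from 1.68e-14 to 0.0659 over 20 alternatives, and the second to 0.90.

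Mertk, on the plus strand at chr2:128540729-128645080 (ENSMUSG00000014361), also rose with LPS/IFNγ in both contexts. It had 341 and 257 normalized counts in Ctrl samples, 825 and 1457 in LPS samples, 166 and 270 in Eff samples and 706 and 1348 in LPSEff samples. The stimulated samples did not overlap with the unstimulated ones, while efferocytic and naïve samples overlapped with and without stimulation. The rise was 1.89 (SE 0.40, 3.70-fold, adjusted p = 0.0111, limma, n = 2 per group) in naïve Mϕ and 2.20 (SE 0.40, 4.59-fold, adjusted p = 0.00672) in efferocytic Mϕ. The naïve Mϕ call was lost without Ctrl 2, where the rise was 1.68 (adjusted p = 0.0755), or without LPS 2, where it was 1.48 (adjusted p = 0.0552), and the adjusted p ranged from 1.17e-09 to 0.0755 over 20 alternatives.

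Since Axl and Mertk rose together, the genomic sequence just upstream of their transcripts is shown, 5′ to 3′ on the strand of the gene (GRCm39). For Axl these are the 250 bases at chr7:25488330-25488579 before the annotated start. For Mertk they are the 194 bases at chr2:128540535-128540728 that lie before any annotated exon. Capitals mark matches to the motifs searched.
Axl: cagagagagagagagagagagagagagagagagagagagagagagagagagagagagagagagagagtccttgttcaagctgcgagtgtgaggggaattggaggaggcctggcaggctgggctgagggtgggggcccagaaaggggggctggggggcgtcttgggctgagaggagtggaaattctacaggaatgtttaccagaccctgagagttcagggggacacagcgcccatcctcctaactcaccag
Mertk: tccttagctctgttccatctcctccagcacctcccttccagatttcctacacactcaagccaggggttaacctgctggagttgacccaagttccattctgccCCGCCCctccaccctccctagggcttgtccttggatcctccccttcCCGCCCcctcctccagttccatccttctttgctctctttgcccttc
Both strands of the 250 bases before the canonical start were searched in 21770 protein-coding genes for 6 short motifs, which may overlap each other. These were TTCNNNGAA (STAT dimer site, in 7.70% of promoters), GAAANNGAA (interferon response element core, 7.55%), GGGNNTTCC (NF-kB core, 5.03%), TGANTCA (AP-1 site, 6.17%), GGGCGG (Sp1 box, 36.3%) and AGGTCA (nuclear receptor site, 13.1%). The Axl stretch, which opens with a long GA repeat, held none of them. The Mertk window held the Sp1 box alone, on the opposite strand, 148, 102 and 49 bases before the canonical start, of which the first pair lies in the stretch shown. The windows of the other members held 3 Sp1 boxes (Tyro3), 1 nuclear receptor site (Gas6) and no match (Pros1).

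Tyro3, the third receptor (plus strand, chr2:119628214-119648738, ENSMUSG00000027298), was low throughout and went the other way. Its normalized counts were 181 and 134 in Ctrl samples, 53.0 and 86.3 in LPS samples, 69.2 and 118 in Eff samples and 81.5 and 92.6 in LPSEff samples, from as few as 41 reads, where counting error alone is 15.6%. Both Ctrl samples were above the 6 other samples, which overlapped with each other. Tyro3 fell by 1.19 (SE 0.35, adjusted p = 0.0418, limma, n = 2 per group) with LPS/IFNγ in naïve Mϕ. In efferocytic Mϕ the difference was −0.06 (95% interval −0.86 to 0.75, adjusted p = 0.938). The call in naïve Mϕ was lost without Ctrl 1 (adjusted p = 0.208), Ctrl 2 (0.0852), LPS 1 (0.194), LPSEff 1 (0.0589) or LPSEff 2 (0.0605), when only the compared groups entered the fit (0.0618), and with all genes above 0 (0.0597). The adjusted p ranged from 0.00634 to 0.208 over 20 alternatives.

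**Figure D1:**
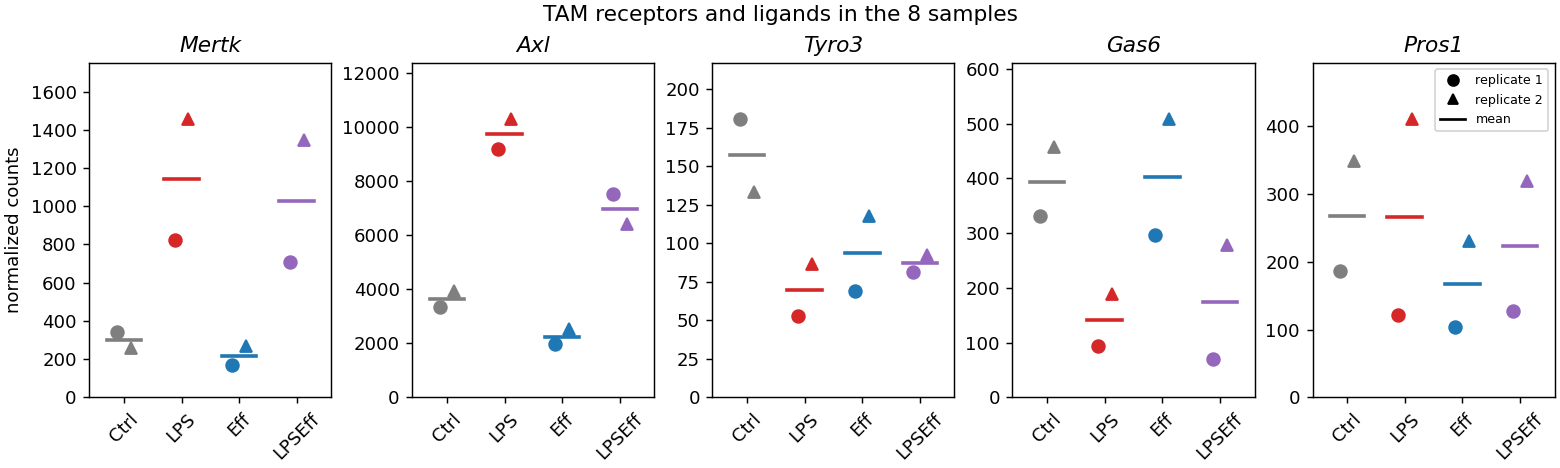
Normalized counts of the 5 genes in the 8 samples, by group, with circles for replicate 1, triangles for replicate 2 and a bar for the group mean. The y axes start at 0 and differ between panels. Axl and Mertk are higher in all 4 stimulated samples, and in Gas6 and Pros1 the triangle lies above the circle in all 4 groups.

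Of the ligands, Gas6 (growth arrest-specific 6, which binds all 3 receptors) lies on the minus strand at chr8:13515371-13544824 (ENSMUSG00000031451). It had 331 and 457 normalized counts in Ctrl samples, 93.1 and 189 in LPS samples, 296 and 509 in Eff samples and 70.5 and 278 in LPSEff samples. All stimulated samples were below all unstimulated ones, with the second sample of each group above the first. The differences with LPS/IFNγ were −1.54 (SE 0.62, 95% interval −2.96 to −0.13, adjusted p = 0.110, limma, n = 2 per group) in naïve Mϕ and −1.46 (SE 0.62, −2.88 to −0.05, adjusted p = 0.141) in efferocytic Mϕ, neither of which passed the test. With the replicate number as a block, that is, when same-numbered samples were compared with each other, Gas6 fell in both contexts, with an SE of 0.29 and adjusted p-values of 0.00148 and 0.00235. Gas6 was also called in naïve Mϕ with samples rescaled to equal totals (adjusted p = 0.0325), with only the compared groups (0.0361), with DESeq2 (0.0256), and without LPSEff 1 (0.0322) or LPSEff 2 (0.0334), and with the block in edgeR and DESeq2, the range over 20 alternatives being 1.98e-05 to 0.383. In efferocytic Mϕ the difference was −0.48 without LPSEff 1 and −2.45 without LPSEff 2. It was called there with equal totals (0.0354), without LPSEff 2 (0.0212), and with the block in edgeR and DESeq2, the range being 0.000131 to 0.621. Of its exons, 154 bases overlap the antisense gene Tmem255b.

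Pros1, the gene of Protein S, which binds Mertk and Tyro3 (plus strand, chr16:62674275-62749710, ENSMUSG00000022912), showed no called difference in any comparison. Its normalized counts were 187 and 349 in Ctrl samples, 122 and 411 in LPS samples, 104 and 231 in Eff samples and 127 and 320 in LPSEff samples. The second sample was the higher one in each group, and all pairs of groups overlapped. The differences with LPS/IFNγ were −0.19 (95% interval −1.74 to 1.36, adjusted p = 0.878, limma, n = 2 per group) in naïve and 0.37 (−1.18 to 1.92, adjusted p = 0.762) in efferocytic Mϕ. The intervals are wide because the samples of a group lay far apart, with an SD of up to 76.9% of the mean (in LPS). The SE was 0.67 and fell to 0.21 with the replicate block, which called Pros1 in no comparison.

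In all, 3 of the 5 genes were called in LPS vs Ctrl (Mertk and Axl higher, Tyro3 lower), where 12.4% of the 16309 genes were called higher and 11.6% lower. In LPSEff vs Eff 2 of the 5 were called, both higher, against 10.7% of all genes, and none was lower, against 8.95%. With the replicate block, 2 of the 5 were called lower in LPS vs Ctrl (Tyro3 and Gas6), against a background of 20.7%, and 1 in LPSEff vs Eff (Gas6), against 18%. Groups did not overlap for 4 of the 5 genes in LPS vs Ctrl and 3 in LPSEff vs Eff, where the same was true of 59.3% and 59.9% of all genes.

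**Figure D2:**
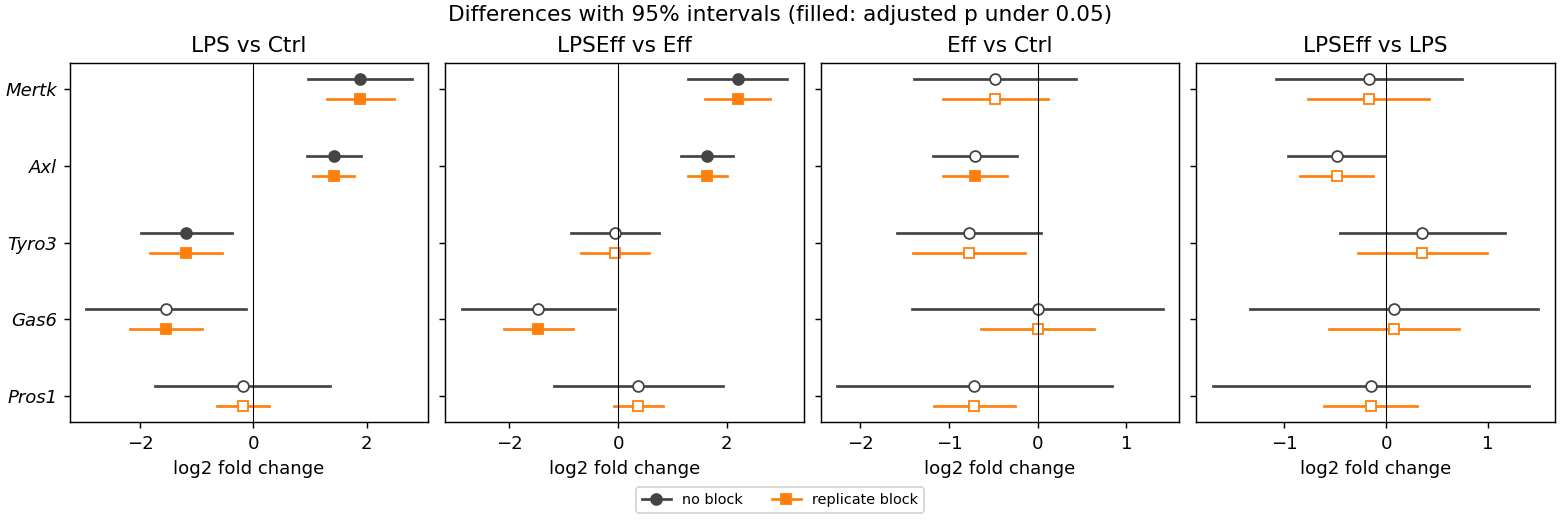
Log2 fold changes of the 5 genes in the 4 comparisons (x axes, which differ in range) with 95% intervals, from limma without (circles) and with (squares) the replicate number as a block, and filled symbols for an adjusted p under 0.05. The block narrows the intervals of Gas6 and Pros1 most. In both comparisons with LPS/IFNγ the Gas6 intervals lie below 0 in both fits, with filled symbols only with the block.

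Prior efferocytosis moved no member past the threshold with limma, edgeR or DESeq2 (0 called by each), and 1 member, Axl, had an unadjusted p under 0.05 in limma in both comparisons, as had 6.13% of all genes without and 10.3% with LPS/IFNγ. In Eff vs Ctrl, 0 of the 5 were called (0.251% of all genes) and in LPSEff vs LPS 0 of the 5 (0.773%), and groups did not overlap for 2 (Axl and Tyro3) and 1 (Axl), against 34.1% and 36.3% of all genes. These comparisons share samples with those of LPS/IFNγ above, Eff vs Ctrl the Ctrl samples with LPS vs Ctrl. Axl was lower after efferocytosis by values of −0.71 (SE 0.21, 95% interval −1.19 to −0.23, adjusted p = 0.420, limma, n = 2 per group) in unstimulated and −0.49 (SE 0.21, −0.96 to −0.01, adjusted p = 0.481) in stimulated Mϕ, with both same-numbered pairs in that direction each time. With the replicate block Axl fell in Eff vs Ctrl (SE 0.16, adjusted p = 0.0480, where 0.975% of all genes were called lower), as it did in DESeq2 with the block but not in edgeR with the block (adjusted p = 0.0553), and the adjusted p ranged from 0.00576 to 1.00 over 20 alternatives. Mertk differed by −0.48 (95% interval −1.39 to 0.44) and −0.17 (−1.08 to 0.75), Gas6 by −0.003 (−1.42 to 1.41) and 0.08 (−1.33 to 1.49), and Pros1 by −0.71 (−2.26 to 0.83) and −0.15 (−1.70 to 1.40). Tyro3 differed by −0.78 (SE 0.35, −1.58 to 0.03, adjusted p = 0.840) in unstimulated and by 0.36 (SE 0.35, −0.45 to 1.16, adjusted p = 0.828) in stimulated Mϕ. In Eff vs Ctrl the limma intervals with the replicate block lay below 0 for Pros1 (−1.17 to −0.26) and Tyro3 (−1.41 to −0.14). Neither was called there (adjusted p = 0.114 and 0.226, limma).

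Fibroblast markers moved with these comparisons. Of 25 listed, 21 were tested, and 6 were higher and 0 lower in Eff vs Ctrl (14 higher with the replicate block), led by the collagens Col6a3, Col1a2 and Col3a1, with a median of 3.16 beside −0.01 for all genes. In LPSEff vs LPS 9 were higher (13 with the block) with a median of 4.27, led by Col6a3, Col3a1 and Prrx1. In Ctrl 13 of the 25 were under 10 normalized counts and Tcf21 was at 0. Axl, Mertk and Pros1 had their lowest group mean in Eff. The part of remaining fibroblast RNA in the values of the 5 genes was not tested, and in bulk RNA fewer cells of a type and less RNA per cell cannot be told apart. Of 14 Mϕ markers, 0 were called in either comparison (limma, 0 with edgeR, 0 with DESeq2 and 0 at an unadjusted p under 0.05). Of 5 dendritic cell markers tested 0 were called, and all 5 had differences below 0 in both comparisons, as Axl did, with a median of −0.70 without and −0.81 with LPS/IFNγ. The medians of all genes were −0.01 and −0.003. With the replicate block Dpp4 was called lower in Eff vs Ctrl (0.975% of all genes), and Flt3 and Ccr7 in LPSEff vs LPS (2.65%). The part of such cells in the values of Axl was not tested. Of 8 granulocyte markers 1 was higher in Eff vs Ctrl (S100a8), and with the block it was higher in LPSEff vs LPS as well.

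Whether the LPS/IFNγ effect differed between efferocytic and naïve Mϕ was tested as an interaction. It was called for 0 of the 5 genes and 0 of all 16309 (0%) with limma, and for 0 with edgeR and DESeq2, while 311 genes (1.91%), 0 of them members, had an unadjusted p under 0.05. DESeq2 with the replicate block called 29 genes (0.178%), 0 of them members. Tyro3 had the value farthest from 0 among the members, 1.13 (SE 0.50, 95% interval −0.01 to 2.27, adjusted p = 1.00, limma, n = 2 per group). The others were 0.31 (−0.98 to 1.60) for Mertk, 0.22 (−0.45 to 0.90) for Axl, 0.08 (−1.92 to 2.08) for Gas6 and 0.56 (−1.63 to 2.75) for Pros1.

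Levels were compared between genes as normalized counts per kb of annotated exon. In Ctrl, Axl had 398 ± 45.1 (SD, n = 2), followed by Gas6 with 71.7 ± 16.1, Mertk with 62.1 ± 12.4, Pros1 with 42.4 ± 18.2 and Tyro3 with 23.6 ± 5.01. In LPS the order became Axl with 1064 ± 84.9, Mertk with 237 ± 93.0, Pros1 with 42.2 ± 32.4, Gas6 with 25.6 ± 12.3 and Tyro3 with 10.4 ± 3.53. Mertk thus moved from a level that overlapped with those of both ligands to one above both, and Gas6 from the second to the fourth place. The Eff order by exon length was that of Ctrl, with 244 ± 41.7 for Axl, 73.2 ± 27.3 for Gas6, 45.3 ± 15.2 for Mertk, 26.5 ± 14.2 for Pros1 and 14.0 ± 5.15 for Tyro3. The LPSEff order was that of LPS, with 761 ± 84.9 for Axl, 214 ± 94.4 for Mertk, 35.3 ± 21.6 for Pros1, 31.7 ± 26.7 for Gas6 and 13.1 ± 1.18 for Tyro3. Axl was apart from its neighbour in all 4 groups. Gas6 overlapped with Mertk and Mertk with Pros1 in Ctrl and Eff, Pros1 overlapped with Gas6 in LPS and LPSEff, and Tyro3 was apart from its neighbour in Ctrl and LPS but not in Eff and LPSEff. With the longest transcript as the length, Pros1 (72.3 ± 31.0) came before Mertk (63.5 ± 12.6) in Ctrl, and the order in the other 3 groups stayed as given.

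Among 16241 genes with a length, Axl stood at percentile 95.7 of the level per kb in Ctrl and 97.7 in LPS. Mertk stood at percentile 70.1 in Ctrl, 61.9 in Eff, 90.3 in LPS and 89.2 in LPSEff. Gas6 stood at percentile 73.7 in Ctrl and 45.8 in LPS, and Tyro3 at 42.2 and 25.1. The 3 receptors together summed to between 464 and 503 normalized counts per kb in Ctrl and between 260 and 348 in Eff, and with stimulation to between 1183 and 1440 in LPS and between 980 and 995 in LPSEff. The share of Axl in this sum was 82.1% in Ctrl, 81.4% in LPS, 80.7% in Eff and 77.1% in LPSEff, while that of Tyro3 was 4.91% in Ctrl, 0.785% in LPS, 4.53% in Eff and 1.32% in LPSEff.

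**Figure D3:**
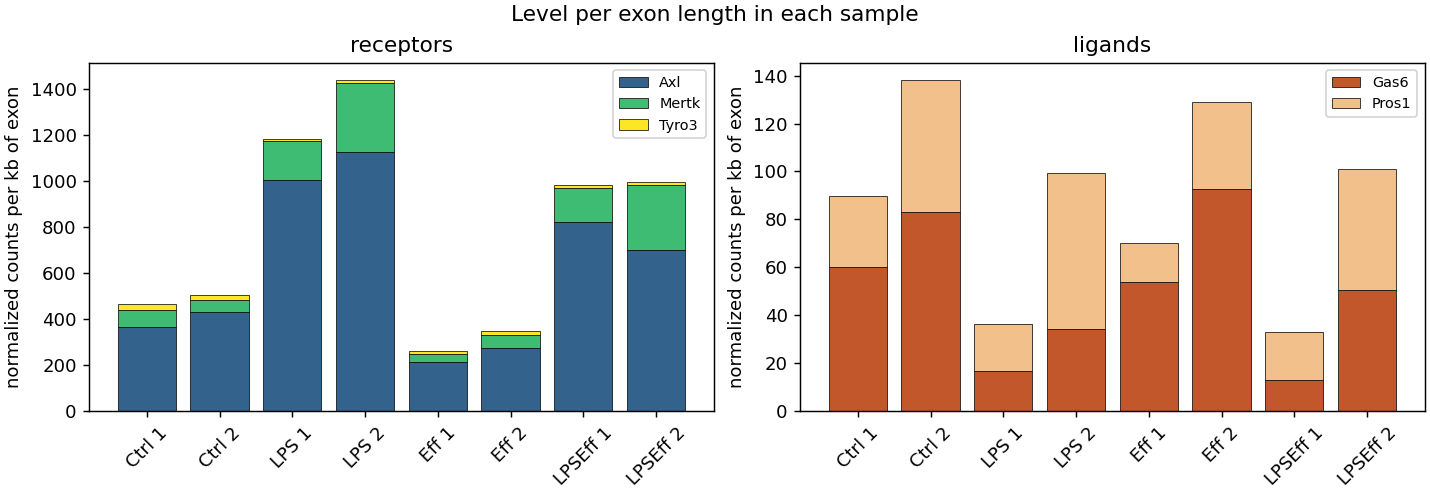
Normalized counts per kb of annotated exon, stacked for the 3 receptors (left) and the 2 ligands (right) in each of the 8 samples. The receptor sum is between 980 and 1440 in the stimulated samples and between 260 and 503 in the others, with Axl as the largest part in each, while the ligand sum is lower in the first than in the second sample of each group.

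Each sample's ratio of Axl to Mertk per kb was 5.16 and 8.05 in Ctrl samples, 5.85 and 3.71 in LPS samples, 6.21 and 4.89 in Eff samples and 5.59 and 2.50 in LPSEff samples. These ratios overlapped in every comparison (two-sided exact permutation p = 0.667 for each, n = 2 per group). The ratio of Gas6 to Pros1 was 2.04 and 1.50 in Ctrl and 3.26 and 2.53 in Eff, and it was 0.880 and 0.528 in LPS and 0.639 and 0.999 in LPSEff. The ratio was thus above 1 in all unstimulated samples and below 1 in all stimulated ones, though barely so in LPSEff 2. The log2 ratio was lower with LPS/IFNγ by a difference of −1.36 in naïve and −1.85 in efferocytic Mϕ, and it was higher by 0.72 in Eff than in Ctrl. For each of these 3 comparisons the two-sided exact permutation p was 0.33 (n = 2 per group), the smallest that this design can give, and 0.667 after adjustment over the 8 comparisons of ratios. Between LPSEff and LPS the difference was 0.23 (exact permutation p = 0.667).

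The replicate number itself moved with both ligands. The second sample exceeded the first in all 4 groups for Gas6 and Pros1, as for 29.1% of all genes, and in 3 groups for Mertk, Axl and Tyro3. In the fit with the replicate block, replicate 2 exceeded replicate 1 by 1.05 (SE 0.20, 2.08-fold, adjusted p = 0.00588, limma) for Gas6 and by 1.28 (SE 0.15, 2.43-fold, adjusted p = 0.000459) for Pros1, where 15.6% of all genes were called higher. The values for Mertk (0.51, adjusted p = 0.0750), Tyro3 (0.30, adjusted p = 0.303) and Axl (0.13, adjusted p = 0.438) did not pass. What differed between the samples numbered 1 and 2 is not given in the sources used here.

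Before TAM ligands can bind phosphatidylserine, their Gla domain is carboxylated and their propeptide removed, and receptor ectodomains can be shed by metalloproteases. Of 10 genes listed for these steps, 3 rose and 1 fell in LPS vs Ctrl, with a median of 0.55 beside −0.01 for all genes tested. In this comparison 12.4% of all genes were called higher and 11.6% lower. Rhbdf2, which carries the sheddase Adam17 to the cell surface, rose from 888 ± 52.4 to 2713 ± 385 normalized counts (log2 difference 1.60, adjusted p = 0.00299, limma, n = 2 per group). Adam17, the protease that cleaves Mertk, rose from 2116 ± 96.4 to 4096 ± 832 (0.94, adjusted p = 0.0203). Furin, a proprotein convertase, rose by 1.54 (adjusted p = 0.00745). Vkorc1l1, a paralog of the vitamin K epoxide reductase, fell by 1.17 (adjusted p = 0.0232). The carboxylase Ggcx, with 77.7 ± 16.7 normalized counts in Ctrl and 66.0 ± 20.2 in LPS, and the reductase Vkorc1, with 50.1 ± 4.58 and 38.5 ± 4.13, were not called.

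In efferocytic Mϕ, Rhbdf2, Furin and Adam17 rose as well (1.50, 1.42 and 1.10, adjusted p from 0.00478 to 0.0122), 3 higher and 0 lower of the 10, with a median of 0.40 beside 0.01 for all genes. In LPSEff vs Eff 10.7% of all genes were called higher and 8.95% lower. With the replicate block the counts of the list were 4 higher and 2 lower in both comparisons. The additions were Timp3, an inhibitor of Adam17, which rose, Adam10, which fell, and in LPSEff vs Eff Vkorc1l1, which fell. The block called 20.5% of all genes higher and 20.7% lower in LPS vs Ctrl, and 19% and 18% in LPSEff vs Eff. With samples rescaled to equal totals, which moved the median of all genes to −0.41 in LPS vs Ctrl and −0.44 in LPSEff vs Eff, the counts were 2 higher and 2 lower in both, and with quantile normalization they were 1 higher and 2 lower in both. Equal totals called 35% and 34.1% of all genes in these comparisons, with 24.6% and 21.7% of the calls higher. Quantile normalization called 25.4% and 22.9%, with 44.5% and 43.9% of the calls higher. With equal totals Adam17 was not called in LPS vs Ctrl (0.54, adjusted p = 0.0618, limma) and remained at 0.65 (adjusted p = 0.0333) in LPSEff vs Eff.

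The list of TAM signalling and its feedback held 27 genes, all tested. In LPS vs Ctrl 8 rose and 2 fell, with a median of 0.24 beside −0.01 for all genes, of which 12.4% were called higher and 11.6% lower. Tnfaip3, the NF-kB inhibitor A20, rose from 710 ± 92.5 to 9747 ± 1948 normalized counts (3.77, adjusted p = 0.000107, limma, n = 2 per group). Socs1, a suppressor of cytokine receptor signalling, rose by 2.93 (adjusted p = 0.000421), and Src, a cytoplasmic tyrosine kinase, by 2.57 (adjusted p = 0.000227). In LPSEff vs Eff 7 rose and 2 fell (9 and 5 with the replicate block), led by the same 3 genes with 3.70, 2.54 and 2.52, and the median was 0.31. The shares of all genes were 10.7% higher and 8.95% lower there, and 19% and 18% with the block. The receptor subunits Ifnar1 and Ifnar2, Socs3 and Tyk2 were the others called higher in both comparisons, and Vav2, a guanine nucleotide exchange factor, was lower in both. With equal totals the counts were 5 higher and 4 lower in LPS vs Ctrl and 5 higher and 7 lower in LPSEff vs Eff, and with quantile normalization they were 6 and 5, and 5 and 6. Equal totals called 35% and 34.1% of all genes in either direction, and quantile normalization 25.4% and 22.9%. Neither comparison of efferocytic with naïve Mϕ had a called gene among the 27 (0 with limma, 0 with edgeR and 0 with DESeq2), while 4 had an unadjusted p under 0.05 in each. With the replicate block 2 of the 27, Elmo1 and Pik3r1, were called lower in LPSEff vs LPS (adjusted p = 0.0347 and 0.0385, limma), as were 2.65% of all genes. Of the 10 carboxylation and shedding genes, 0 were called by the 3 tools in either comparison, with 1 and 0 at an unadjusted p under 0.05. With the block 1, Timp3, was called higher in Eff vs Ctrl (adjusted p = 0.0498, limma), as were 1.7% of all genes.

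Of 17 transcriptional regulators that have been tied to Mertk or Axl, 6 rose and 3 fell in LPS vs Ctrl (median 0.50) and 8 rose and 4 fell in LPSEff vs Eff (median 0.90). Of all genes 12.4% were higher and 11.6% lower in LPS vs Ctrl (median −0.01), and 10.7% were higher and 8.95% lower in LPSEff vs Eff (median 0.01). Irf1 rose from 310 ± 10.0 to 3983 ± 1329 normalized counts (3.64, adjusted p = 6e-05, limma, n = 2 per group) and Stat2 by 2.63 (adjusted p = 5.39e-05). Pparg, the nuclear receptor that drives lipid-handling genes, fell from 138 ± 38.6 to 19.0 ± 9.67 (−2.86, adjusted p = 0.00337), and its partner Rxra fell by 2.11. The LXR genes, known to raise Mertk after apoptotic cell uptake, differed from each other: Nr1h2 rose by 0.90 (adjusted p = 0.0208) and Nr1h3, with 107 ± 34.4 in Ctrl and 109 ± 18.5 in LPS, was not called. With equal totals 5 rose and 4 fell in LPS vs Ctrl, and 5 rose and 6 fell in LPSEff vs Eff, and with quantile normalization 6 rose and 3 fell, and 6 rose and 5 fell. After efferocytosis, Yap1, a co-activator of the Hippo pathway, was the one called with limma, in LPSEff vs LPS (2.89, adjusted p = 0.0311, from 20.4 ± 1.36 to 160 ± 43.4 normalized counts), in the samples in which the fibroblast markers were also higher. With the replicate block 4 rose there (Yap1, Fosl1, Ppard and Rxra), against 4.32% of all genes called higher (0.73% without the block). In Eff vs Ctrl the block called Yap1 higher (1.7% of all genes) and Stat2 and Irf1 lower (0.975%).

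Of 3 further ligands proposed for TAM receptors, Tub and Tulp1 were under 10 normalized counts in every group. Lgals3 (galectin-3) had 27186 ± 5383 normalized counts in Ctrl, 13940 ± 282 in LPS, 32253 ± 3783 in Eff and 20375 ± 3506 in LPSEff. It fell by 0.95 in LPS vs Ctrl (adjusted p = 0.0286, limma, n = 2 per group), and the difference was −1.35 with equal totals and −1.75 with quantile normalization. In LPSEff vs Eff the difference was −0.67 (adjusted p = 0.106), and it fell with the replicate block (adjusted p = 0.0145), with equal totals (adjusted p = 0.0144) and with quantile normalization (adjusted p = 0.00742). With equal totals and quantile normalization that difference was −1.12 and −1.51. The interaction was called for 0 genes of these 4 lists with limma.

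**Figure D4:**
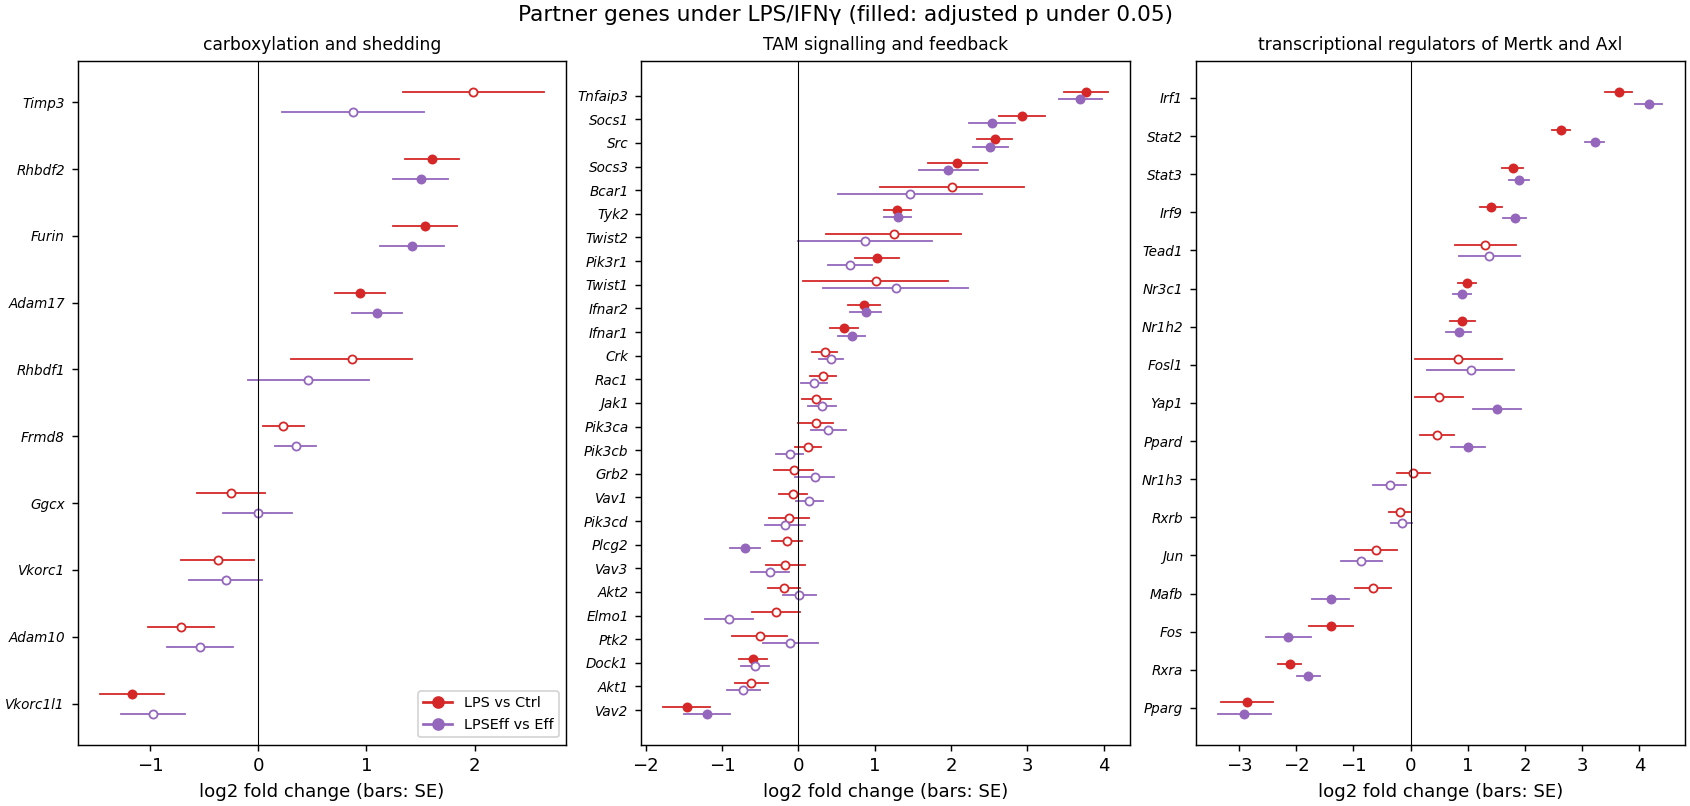
Log2 fold changes (x axis) with SE bars of the tested genes of 3 partner lists in LPS vs Ctrl (red) and LPSEff vs Eff (purple), with filled symbols for an adjusted p under 0.05 and genes ordered by LPS vs Ctrl. Tnfaip3 and Irf1 lie at 3.64 or above in both comparisons, and Pparg is the lowest, at −2.86 and −2.91.

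Some markers of other cell types were also called with LPS/IFNγ. Of all genes, 12.4% were called higher and 11.6% lower in LPS vs Ctrl. In LPSEff vs Eff the shares were 10.7% and 8.95%. With the replicate block they were 20.5% and 20.7% in LPS vs Ctrl, and 19% and 18% in LPSEff vs Eff. In either direction, equal totals gave 35% and 34.1% in these 2 comparisons, and quantile normalization 25.4% and 22.9%. Of 8 dendritic cell markers 5 were tested, of which Xcr1 and Ccr7 were higher in LPS vs Ctrl (5 with the replicate block) and Ccr7 in LPSEff vs Eff (4 with the block). Their summed level lay between 2165 and 2934 normalized counts in Ctrl samples, 8516 and 17215 in LPS samples, 1371 and 1771 in Eff samples and 6889 and 6909 in LPSEff samples, where Cd209a was at 0. Of 10 granulocyte markers 8 were tested, of which 2 were higher in each comparison (6 and 4 with the block), with sums between 699 and 2324 over all samples. Of the 21 fibroblast markers tested, 3 were higher in each comparison (11 and 8 with the block). Of the 14 Mϕ markers, 3 were higher in each, among them Cd14 and Adgre1 in both. With the block, 5 Mϕ markers were higher in each, with 2 lower in LPS vs Ctrl and 1 in LPSEff vs Eff. With equal totals, 2 Mϕ markers were higher in each, with 5 lower in LPS vs Ctrl and 2 in LPSEff vs Eff. With quantile normalization, 1 was higher and 6 lower in LPS vs Ctrl (median −0.68), and 2 were higher and 5 lower in LPSEff vs Eff (median −0.62). Their part in the rises of Axl and Mertk was not tested.

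The genes with the most similar profile were found by Pearson's r of the log2 values over the 8 samples among 16308 genes, as a description. Samples of 4 groups and 2 replicate numbers are the shared points, and any gene that follows the same groups scores highly. Mertk was closest to B2m (r = 0.996), Scfd1 (0.996) and Adam17 (0.993), and Axl to Serpina3g (0.997), Tyk2 (0.995) and Rab9 (0.994). Gas6 was closest to Pdxdc1 (0.995), Syngr1 (0.987) and Usp46 (0.987), Pros1 to the mitochondrially encoded mt-Tg (0.991) and mt-Nd3 (0.990) and to Cpa3 (0.990), and Tyro3 to Gm47350 (0.963), Zfp946 (0.956) and Hdac8 (0.954). Among the members, Mertk and Axl had the highest r (0.915), and Axl and Gas6 the lowest (−0.72).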

How the data were processed

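Total RNA-seq of BMDMs was available for 8 samples in 4 groups. Per the labels and the study's methods, the authors removed rRNA from the RNA and, by Bowtie2, from the reads trimmed with cutadapt, aligned the remainder to mm39 using STAR, and took gene counts from HTSeq (default mode). The deposited signal is the normalized count of each gene, its reads divided by a size factor of the sample. The versions and the annotation release are not given in the sources used here. All values (100%, tolerance 0.001) were whole multiples of the smallest nonzero value, which gave the reads. The median was 8431112.5 reads per sample, counting errors of the members' values reach 15.6%, and such floors and errors cover counting only. Names, positions and exon lengths came from GENCODE mouse release M39 on GRCm39 (the same build), which named 54749 of 55359 identifiers (98.9%).

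Testing used limma (R 4.3.3, package 3.58.1, trend option) on log2(value + 1) of the 16309 genes that averaged 10 or more, with 4 group means and 4 residual degrees of freedom, Benjamini-Hochberg adjusted. The deposited values are normalized, so that edgeR (4.0.16) and DESeq2 (1.42.0) on recovered reads were alternatives. Other alternatives were pseudocounts of 0.5 and 5, means above 0 or of at least 50, only the compared groups, quantile normalization, equal totals, the longest transcript as length, leaving out each sample, and the replicate number as a block (3 residual degrees of freedom). Count tests with the block and the test of the replicate number were chosen after seeing the data. Differences between replicate 1 and replicate 2 correlated across genes in all 6 pairs of groups, with r from 0.404 to 0.595, so that the numbers were taken to pair the samples. Neither the labels nor the study's methods tell whether samples of a number come from a common preparation or whether those of a group are separate cultures, so that p-values measure the spread between these samples, which may be technical. Scripts were tested on simulated counts.

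The members, the gene lists and the tests were chosen with earlier results of these data known. The members are named with every value. Of each list, the 3 called genes with the largest change per comparison are named, and other list genes were named after their values were seen. Likeness names the 3 genes with the highest r. One gene of the signalling list is not reported here. Protein sequences were not used here.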

Additional observations from a re-analysis of the deposited data

Results flagged for a closer look

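Tyro3 was the one member whose difference between efferocytic and naïve Mϕ had opposite directions without and with LPS/IFNγ in both same-numbered pairs. The log2 difference was −0.78 in Eff vs Ctrl (−1.37 in the samples numbered 1 and −0.18 in those numbered 2) and 0.36 in LPSEff vs LPS (0.61 and 0.10). The test of the difference between both gave 1.13 (SE 0.50, limma) with an unadjusted p of 0.0514 and an adjusted p of 1.00, and with the replicate block 0.0178 and 0.648. The adjusted p ranged from 0.648 to 1.00 over 19 alternatives. Tyro3 had 231 reads at most in a sample.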

How the results depend on the processing

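Among all comparisons of a member's log2 difference with an alternative, 438 kept direction and side of the threshold, 15 passed it newly, 10 no longer passed it and 32 changed sign, all of them differences that had not passed. Leaving out each sample in turn, 1 to 3 members were called in LPS vs Ctrl, the lowest count being without Ctrl 2, where only Axl was called. In Eff vs Ctrl 1 member, Axl, was called with the replicate block and 1 with DESeq2 with the replicate block, while edgeR with the block called 0 (adjusted p = 0.0553 for Axl). In limma the block changed no call of a member other than those of Gas6 in both LPS/IFNγ comparisons and of Axl in Eff vs Ctrl. The log2 ratio of Axl to Mertk rose with the longest transcript as length, to 3.64 in Ctrl, 3.17 in LPS, 3.41 in Eff and 2.86 in LPSEff, because the exons of all Axl transcripts together are longer than its longest transcript.

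Signs changed as follows. Pros1 in LPS vs Ctrl was 0.0132 with DESeq2 and −1.06 to 0.69 with a sample left out, and in LPSEff vs Eff −0.0740 with equal totals and −0.29 to 1.04 with a sample left out. Gas6 in Eff vs Ctrl was 0.0343 with quantile normalization, 0.00913 with equal totals, 0.0119 with edgeR, 0.0224 with DESeq2, 0.00131 with edgeR and the replicate block, and −0.39 to 0.39 with a sample left out. With a sample left out, Tyro3 in LPSEff vs Eff was −0.43 to 0.32, and in LPSEff vs LPS Gas6 was −0.90 to 1.06, Mertk −0.63 to 0.30 and Pros1 −1.03 to 0.72. The interaction of Gas6 was −0.0172 with quantile normalization and −0.90 to 1.06 with a sample left out, that of Mertk −0.15 to 0.78 and that of Pros1 −0.31 to 1.44. The cause was not tested. Over all genes, the share of calls that were higher fell from 51.5% to 24.6% in LPS vs Ctrl and from 54.6% to 21.7% in LPSEff vs Eff with equal totals, and to 43.9% in the latter with quantile normalization. The replicate block raised the calls in LPS vs Ctrl from 3910 to 6717, in LPSEff vs Eff from 3213 to 6033, in Eff vs Ctrl from 41 to 436 and in LPSEff vs LPS from 126 to 1137. In Eff vs Ctrl edgeR called 14 and DESeq2 207, and in LPSEff vs LPS DESeq2 called 368.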
